A study of Saccharomyces cerevisiae with 6 samples.

Results

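Ribosomal protein genes encode the protein part of the ribosome, and 10 of them are described here by the nucleosomes over their coding sequence and promoter while histone H3 was depleted. The genes were taken by name. The rule used no measured value, though earlier results of these data were known when the genes were chosen. Of the small subunit these are RPS2, RPS3, RPS13 and RPS20, and of the large subunit RPL3, RPL5, RPL10, RPL25, RPL28 and RPP0. They are 10 of 137 ribosomal protein genes named in the RefSeq R64 annotation, and 10 of the 19 whose name has no A or B suffix. Most yeast ribosomal proteins come from near-identical gene pairs marked A and B, between which short reads can be split, and these 10 genes have no such partner by name. The other ribosomal protein genes were not analysed here. Positions are approximate and of the sacCer1 build, and the length of each coding span, introns included, equalled the RefSeq length for 10 of 10 genes. All lie on the plus strand, and the spans measure 366 to 1164 bp.

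The assay was single-end MNase-seq, in which micrococcal nuclease removes linker DNA and the fragments that nucleosomes protect are read, so that read centres pile up at nucleosome centres. In the H3 shutoff strain (DCB200.1) one H3 gene, HHT1, was deleted and the other, HHT2, was placed behind the GAL1 promoter, which is active in galactose and silent in dextrose. Wildtype (YEF473A) keeps both H3 genes. Both strains were grown in galactose, moved to dextrose and crosslinked with formaldehyde directly (0 h) or after 3 h, giving 2 replicates at each time for H3 shutoff and 1 at each time for wildtype. At 0 h the H3 shutoff cells therefore came from a medium in which H3 was made, and the move from galactose to dextrose is common to both strains. The study describes that dextrose arrests H3 shutoff cells in G2/M, with large buds. Loss of H3 and this arrest cannot be told apart in these groups.

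Transcription of ribosomal protein genes takes up a large part of RNA polymerase II activity in fast-growing yeast, and it rises with good carbon sources and falls under stress. Their promoters bind Rap1 together with Fhl1, Ifh1 and Sfp1 and carry wide regions with few nucleosomes. Strong transcription moves and evicts nucleosomes, so the coding sequences of highly transcribed genes tend to show low nucleosome occupancy. Transcription itself is not measured by these reads, and RNA was not analysed here.

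Every library held 5000001 reads, so all levels are relative to the library and an even loss of nucleosomes over the genome would not be seen. Relative occupancy is the number of read centres per base divided by the genome mean, which was 41.4 read centres per 100 bp. The share of distinct intervals among reads rose in H3 shutoff from 52.7% to 59.5% (replicate 1), and 51.9% to 64.5% (replicate 2), while wildtype went from 47.8% to 46.2%. The length to which the authors extended the reads fell from 170 to 158 bp in H3 shutoff replicate 1, and 172 to 165 bp in replicate 2, and was 174 bp in both wildtype libraries. Both values move with the H3 shutoff time points, and their part in the results below was not tested beyond counting each identical interval once. No check of the H3 genes themselves was made here.

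The coding sequences of all 10 genes were poor in nucleosomes before H3 depletion and held more read centres after it. In H3 shutoff the median relative occupancy of the 10 coding spans went from 0.460 to 1.15 in replicate 1, and 0.619 to 0.856 in replicate 2. In wildtype it went from 0.491 to 0.335. In 10 of 10 genes both H3 shutoff libraries at 3 h lay above both at 0 h, and both wildtype libraries lay below both H3 shutoff libraries at 3 h. The share of other tiles of the genome with such an order was not counted, so these counts have no background beside them. The median log2 change from 0 h to 3 h was 1.34 in replicate 1 and 0.55 in replicate 2, a mean of 0.94 ± 0.56 (SD, n = 2 pairs), against -0.45 in the single wildtype pair. The size of the rise therefore differed between the replicates, and it was larger in replicate 1 for 9 of 10 genes.

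**Figure D1:**
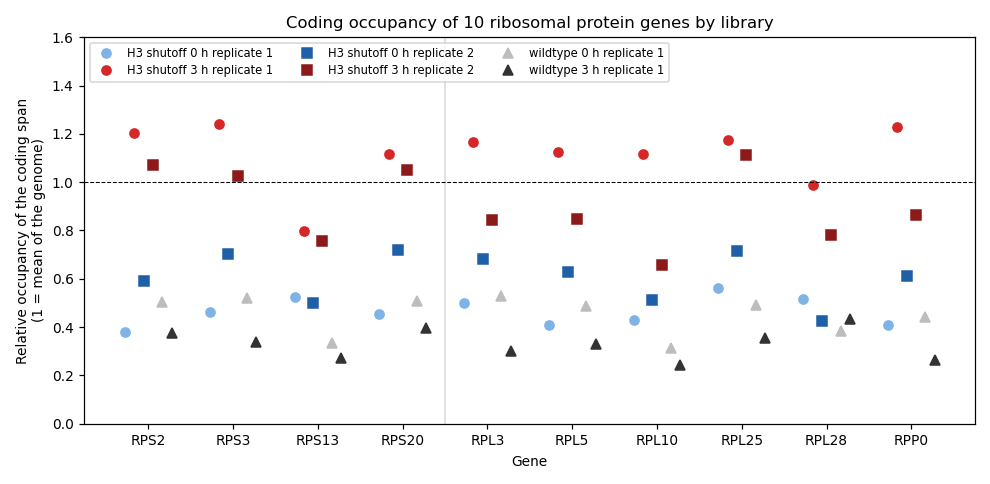
Relative occupancy of the coding span (read centres per base, 1 = mean of the genome) of the 10 ribosomal protein genes, with 1 point per library and small-subunit genes left of the vertical line. The H3 shutoff libraries at 3 h (red and dark red) sit between 0.656 and 1.24, above every other library of the same gene, and wildtype at 3 h (black) is the lowest library in 9 of 10 genes.

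Among the small-subunit genes, RPS2 and RPS3 encode neighbouring proteins at the channel through which messenger RNA enters the ribosome. The coding span of RPS2 (chromosome 7, 277617 to 278381) had relative occupancies of 0.379 (replicate 1) and 0.590 (replicate 2) before H3 shutoff, which went to 1.21 and 1.07 after 3 h, whereas the wildtype value went from 0.505 to 0.376. The groups did not overlap, and RPS2 went from the lowest of the 10 genes in H3 shutoff replicate 1 at 0 h to a level above the genome mean in both replicates at 3 h. RPS3 (chromosome 14, 302682 to 303404) went from 0.464 to 1.24 in replicate 1, from 0.701 to 1.03 in replicate 2, whereas wildtype had 0.521 and then 0.337. It too was above the genome mean only in the H3 shutoff libraries at 3 h.

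RPS13 and RPS20 encode further proteins of the small subunit, the latter in its head. RPS13 (chromosome 4, 579459 to 580453, a span that includes an intron) had relative occupancies of 0.526 and 0.500 before shutoff and 0.796 and 0.757 after it, with wildtype going from 0.332 to 0.272. Its rise was the smallest of the 10 by the mean of the replicates and nearly the same in both, with log2 changes of 0.60 and 0.60, and it stayed below the genome mean in all 6 libraries. RPS20 (chromosome 8, 75412 to 75777), the shortest span, went from 0.455 to 1.11 in replicate 1, from 0.719 to 1.05 in replicate 2, whereas wildtype had 0.508 and then 0.396. RPS20 rests on the fewest reads, with 69 and 109 read centres before shutoff and 169 and 159 after it.

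Of the large-subunit genes, RPL3 codes for a protein that reaches towards the peptidyl transferase centre, RPL5 for the protein that binds 5S ribosomal RNA, and RPL10 for a protein that joins late and is needed for the subunits to come together. RPL3 (chromosome 15, 444687 to 445850) had relative occupancies of 0.500 and 0.680 before shutoff and 1.17 and 0.844 after it, with wildtype going from 0.527 to 0.303. RPL5 (chromosome 16, 303121 to 304014) went from 0.410 to 1.12 in replicate 1, from 0.626 to 0.848 in replicate 2, whereas wildtype had 0.489 and then 0.332. RPL10 (chromosome 12, 282927 to 283592) had 0.428 and 0.511 before shutoff and 1.12 and 0.656 after it, with wildtype going from 0.312 to 0.243. In these 3 genes replicate 1 passed the genome mean at 3 h and replicate 2 did not, so the replicates differed in how far occupancy rose, though not in direction.

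RPL25 encodes a protein at the exit of the peptide tunnel, RPL28 a large-subunit protein in which changes give cycloheximide resistance, and RPP0 the base of the ribosomal stalk. In relative occupancy, RPL25 (chromosome 15, 80348 to 81190, with an intron) went from 0.561 to 1.17 in replicate 1, from 0.716 to 1.11 in replicate 2, whereas wildtype had 0.493 and then 0.355. RPL28 (chromosome 7, 310967 to 311927, with an intron) had 0.515 and 0.425 before shutoff and 0.990 and 0.781 after it, with wildtype going from 0.384 to 0.432. RPP0 (chromosome 12, 805887 to 806825) went from 0.409 to 1.23 in replicate 1, from 0.612 to 0.864 in replicate 2, whereas wildtype had 0.442 and then 0.265. RPL28 was the only one of the 10 genes in which the wildtype level was higher at 3 h than at 0 h, by 0.17 on the log2 scale, an interval of -0.15 to 0.49 by counting error alone (exact binomial, 95%). In the other 9 genes the wildtype log2 change lay between -0.80 and -0.29, and with 1 wildtype pair these changes have no replicate error.

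The coding spans were tested together with all other 1000 bp tiles of the genome by edgeR's quasi-likelihood test on the read-centre counts, with the replicate pair as a block and Benjamini-Hochberg adjustment over all 12026 rows. At an adjusted p under 0.05, 8 of the 10 genes were called higher in H3 shutoff at 3 h and none lower, against 5.35% of all rows called higher and 4.0% called lower. The edgeR log2 change was 0.88 at the median of the 10 genes and ranged from 0.57 (RPS13, adjusted p = 0.0860) to 1.23 (RPS2, adjusted p = 6.06e-05), while the median of all rows was -0.01. RPS20, at 0.88, had an adjusted p of 0.0632 and was not called, though it passed with no filter on low counts (adjusted p = 0.0378). The called genes had adjusted p-values of 0.000638 for RPP0, 0.00298 for RPL5, 0.00303 for RPS3, 0.00401 for RPL28, 0.00502 for RPL25, 0.00581 for RPL3 and 0.0310 for RPL10. In rank among all rows, the genes stood at the 94.9th (RPS13) to the 99.9th percentile (RPS2) of the log2 change.

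These calls depend on the model. DESeq2 in the same design, without its independent filtering, gave log2 changes of 0.59 to 1.25 and called 0 of 10 genes, with adjusted p-values of 0.138 to 0.651, while 8 of 10 had an unadjusted p under 0.05. With its independent filtering the adjusted p was NA for 10 of 10. Without the replicate block, edgeR called 7 of 10. Counting each identical interval once lowered the median log2 change from 0.88 to 0.57, with 9 of 10 called. Without H3 shutoff 3 h replicate 1, and without the block, edgeR called 0 of 10 at a median log2 change of 0.74, with 6 of 10 at an unadjusted p under 0.05. Without H3 shutoff 3 h replicate 2 it called 3 of 10 at a median of 1.06. Leaving out either 0 h library left 9 of 10 called. The log2 change stayed above 0 for 10 of 10 genes in each of these fits.

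Against the change in wildtype, 6 of 10 genes differed by edgeR's test of H3 shutoff change minus wildtype change, where 1.8% of all rows were called higher. The differences were 1.74 on the log2 scale for RPP0 (adjusted p = 0.00571), 1.64 for RPS2 (0.0139), 1.57 for RPS3 (0.0231), 1.53 for RPL3 (0.00571), 1.46 for RPL5 (0.0256) and 1.28 for RPL25 (0.0421). RPS13, RPS20, RPL10 and RPL28 had differences of 0.85, 1.23, 1.20 and 0.71 that did not pass. This test rests on 1 wildtype pair. Without the replicate block 0 of 10 passed after adjustment by edgeR and 9 of 10 had an unadjusted p under 0.05, and DESeq2 also called 0 of 10, with 6 of 10 at an unadjusted p under 0.05. Counting each identical interval once left 3 of 10.

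The 10 genes stand at the low end of the genome before depletion and close to its middle after it. In H3 shutoff at 0 h, 9 and 3 of the 10 genes lay below the 5th percentile of the 12016 tiles outside the genes, which was 0.529 and 0.531. At 3 h, 0 of 10 did in either replicate, where that percentile was 0.671 and 0.649. In wildtype, 4 of 10 lay below it at 0 h and 10 of 10 at 3 h. Tiles as poor in nucleosomes as these genes also tended to rise. Of 981 other tiles with a relative occupancy under 0.55 in wildtype at 0 h, a limit chosen after the values were seen and one that all 10 genes meet, 24.7% were called higher in H3 shutoff and 0 lower, with a median log2 change of 0.40. For genes this poor in nucleosomes, that share is a closer background than the share over all rows. Of all 12016 tiles, 104 had a larger log2 change than the median of the 10 genes, and 80 of those 104 were among the 981.

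Within the genes, the median rise was smaller in the piece next to the start codon in both replicates, a difference that was not tested. With each coding span cut into 3 equal pieces, the median log2 change in H3 shutoff was 0.89 and 0.33 (replicates 1 and 2) in the first piece, 1.55 and 0.61 in the middle and 1.48 and 0.75 in the last. As means over both pairs these are 0.61 ± 0.40, 1.08 ± 0.67 and 1.12 ± 0.52 (SD, n = 2 pairs). These SDs overlap, but they include the difference between the replicates, which all pieces share, and so do not measure the spread of the difference between pieces. In the middle and last pieces 10 of 10 genes were higher at 3 h in both replicates, and in the first piece 9 and 8 of 10 were. RPS13 was the gene without a rise in the first piece in replicate 1, from 0.705 to 0.604, and its last piece went from 0.422 to 1.09 there, and in replicate 2 from 0.480 to 0.909. The first piece of RPL5 went from 0.583 to 1.02 and from 1.05 to 0.778, so the replicates moved in opposite directions, and its middle piece went from 0.219 to 1.13 and from 0.373 to 0.899. For wildtype, the median log2 changes of the pieces were -0.52, -0.50 and -0.43.

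**Figure D2:**
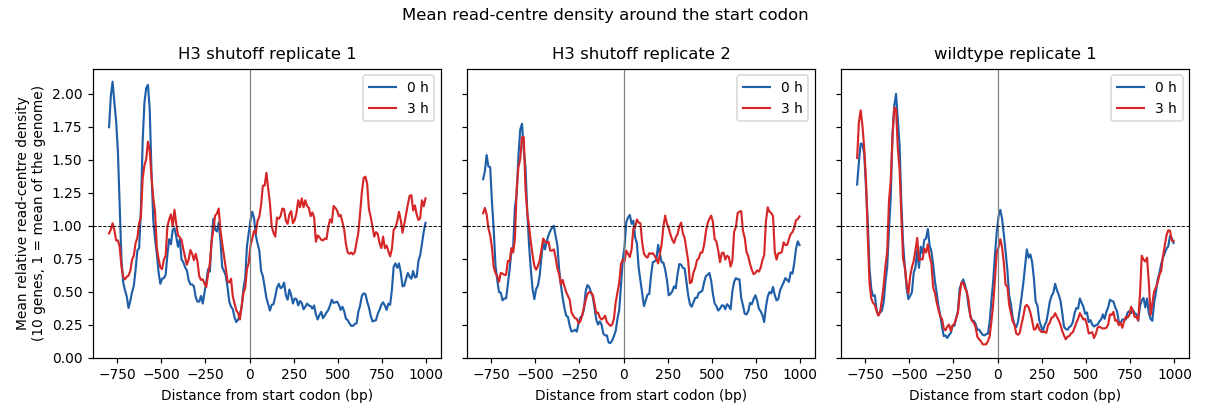
Mean relative read-centre density of the 10 genes around the start codon (x axis in bp, y axis 1 = mean of the genome, 10 bp bins with a running mean), at 0 h (blue) and 3 h (red) in each replicate. A peak at the start codon followed by low peaks at 0 h gives way in H3 shutoff to density near the genome mean across the coding sequence at 3 h, more so in replicate 1, while in wildtype the density past the first peak was lower at 3 h. Densities past 366 bp include sequence downstream of the shorter genes.

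**Figure D3:**
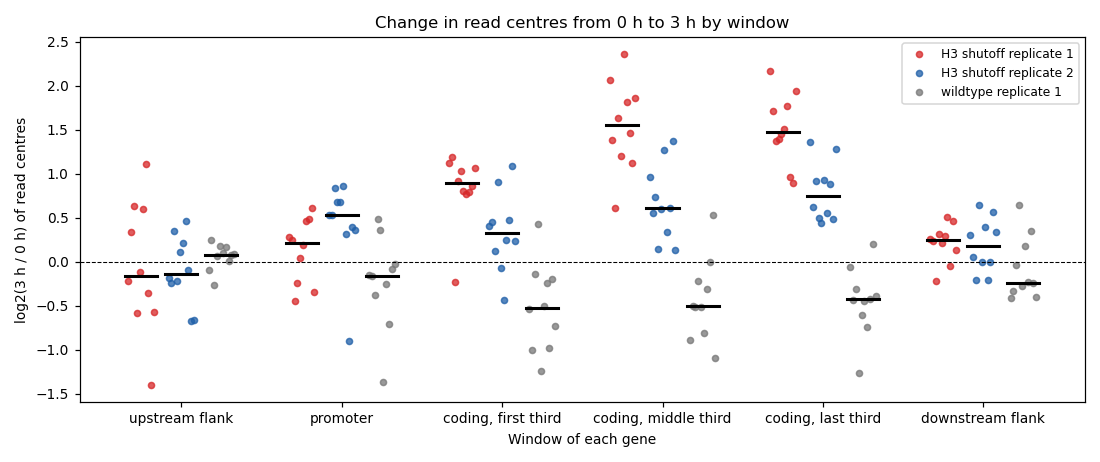
log2 ratio of read centres at 3 h over 0 h in 6 windows of each gene, with 1 point per gene and a black bar at the median of the 10 genes, for the 3 pairs. The H3 shutoff points lie above 0 for 10 of 10 genes in the middle and last pieces of the coding span, and around 0 in the upstream flank.

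The rise was found at most individual nucleosomes of the coding sequence, though not at all of those next to the start codon. Of 54902 consensus nucleosomes called on the pool of the 6 libraries, 43 were centred in the coding spans of the 10 genes. By edgeR with the replicate block, 12 of these 43 were called higher in H3 shutoff at 3 h and 0 lower, where 2.73% of 53684 tested nucleosomes were called higher and 2.96% lower. The log2 change was above 0 for 40 of the 43, with a median of 1.05, and the wildtype median was -0.38. The share called among other nucleosomes equally poor in reads was not counted, nor was the share above 0 over all nucleosomes. Those not above 0 were the first coding nucleosomes of RPS13 (-0.57), RPL3 (-0.07) and RPL5 (-0.005). A nucleosome of RPP0 centred 708 bp after the start codon went from 9 to 44 read centres in replicate 1, and 9 to 33 in replicate 2, with 9 and 5 in wildtype, a log2 change of 2.25 (adjusted p = 0.0196). In RPL5 the nucleosome at 349 bp went from 6 and 20 to 52 and 39, with 22 and 9 in wildtype (log2 2.06, adjusted p = 0.0104). These positions had the largest log2 changes of the 43 and were called by edgeR. That their counts did not overlap between the H3 shutoff time points largely follows from that choice and adds no support. Neither position reached the genome mean of read centres at 0 h.

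The 12 called nucleosomes lie in 6 of the genes, RPS2, RPS3, RPS13, RPL5, RPL25 and RPP0, all of them 312 bp or more after the start codon. RPS2 had 3 of them, at 312, 493 and 700 bp, with log2 changes of 1.79, 1.93 and 1.66. In RPS13 the nucleosome at 647 bp went from 17 to 63 read centres in replicate 1, and 22 to 65 in replicate 2, while wildtype went from 20 to 6. The H3 shutoff change was 1.90 on the log2 scale (adjusted p = 0.00358), and the difference from wildtype of 3.58 was the only one called among the coding nucleosomes of the 10 genes (adjusted p = 0.0491). It was called under no alternative. Over all nucleosomes 0.0689% were called higher in that difference. None of the 12 coding calls was made without the replicate block, where edgeR called 0 of 53684 nucleosomes and 29 of the 43 coding nucleosomes had an unadjusted p under 0.05. DESeq2 without independent filtering also called 0 of the 43, with 9 of 43 at an unadjusted p under 0.05. Counting identical intervals once left 1 coding nucleosome called and a median log2 change of 0.57.

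The number of nucleosomes called by the authors in the coding spans changed less than the reads at each. The totals over the 10 genes were 42 and then 43, and 40 and then 42, in the H3 shutoff pairs, and 40 and then 37 in wildtype. The median number of read centres per called nucleosome, within 50 bp of its centre, went from 23.3 to 53.3 and from 29.5 to 43.3, against 23.3 to 20.0 in wildtype. By the study's binomial comparison of matched nucleosomes within a pair, with a corrected p under 0.01, 7 of 38 coding nucleosomes were called retained in H3 shutoff replicate 1, 0 of 39 in replicate 2 and 0 of 36 in wildtype. Over all matched nucleosomes the retained shares were 1.16%, 0.701% and 0.992%. None of the coding nucleosomes of the 10 genes was called reduced in any of the 3 pairs, where the shares were 4.69%, 3.0% and 0.363%. No coding nucleosome of the 10 genes was called retained in both H3 shutoff replicates. When identical intervals were counted once, replicate 1 also gave 0 of them.

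The call nearest the start codon kept its place in RPS13, at 30 to 35 bp in all 6 libraries, while its position spread over 53 to 252 bp in the other genes. The RPS13 nucleosome went from 64 to 29 read centres (replicate 1) and from 56 to 39 (replicate 2), against 43 to 38 in wildtype. The SD of its read centres went from 22.6 to 40.2 bp and from 19.6 to 42.5 bp, against 27.1 to 24.4 bp in wildtype. In RPS20 the nearest call was centred at 4 to 9 bp in both wildtype libraries and both H3 shutoff libraries at 0 h, and at 76 bp in both H3 shutoff libraries at 3 h. In RPS3 the nearest called centre lay at -150 to -146 bp, that is upstream of the start codon, in those same 4 libraries. In H3 shutoff at 3 h it lay at 102 and 101 bp. An upstream centre was still called there, at -151 bp (replicate 1) and -158 bp (replicate 2). The nearest call of RPS3 thus passed to another nucleosome, and the upstream one did not move that far. Such switches between calls can also enter the medians over the 10 genes. RPS13, RPS20 and RPS3 were chosen after their values were seen. Over the 10 genes the median position went from 8.0 to 71.0 bp in replicate 1, from 34.5 to 71.0 bp in replicate 2, whereas wildtype had 16.0 and then 7.5 bp.

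Nucleosome arrays within the coding sequence were flatter at 3 h. Array amplitude, the SD over the mean of the smoothed read-centre density in up to 600 bp after the start codon, had medians over the 10 genes that went from 0.721 to 0.426 in H3 shutoff replicate 1, and 0.581 to 0.396 in replicate 2. It was lower at 3 h in 10 of 10 genes in both replicates, with a median change of -0.195 ± 0.080 (SD, n = 2 pairs). In wildtype the median fell from 0.963 to 0.876, while the median of the changes per gene was 0.038 and only 4 of 10 genes were lower, so the wildtype direction depends on which is taken. In RPS13, which had the highest amplitude of the 10 at 0 h, it went from 1.05 and 1.25 to 0.528 and 0.378 in H3 shutoff, and was 1.31 and 1.29 in wildtype. The median over all tiles of the genome moved the same way, going from 0.836 to 0.632 in replicate 1, and 0.890 to 0.619 in replicate 2, against 1.04 to 1.07 in wildtype. Amplitude is relative to a mean that itself rose in these genes, and low counts add to it. With the Poisson counting variance subtracted, an alternative chosen after seeing the data, the change was -0.166 ± 0.073, and 9 and 10 of 10 genes were lower.

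**Figure D4:**
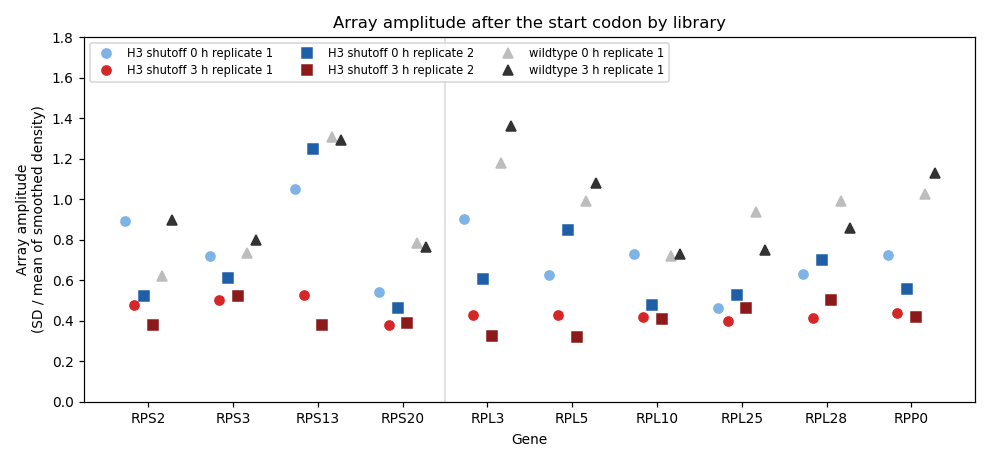
Array amplitude (SD over mean of the smoothed read-centre density in up to 600 bp after the start codon, no unit) for each gene, with 1 point per library and small-subunit genes left of the vertical line. The H3 shutoff libraries at 3 h sit between 0.318 and 0.528, and the wildtype libraries between 0.620 and 1.36.

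The promoters were lower in median occupancy than the coding sequences in 5 of 6 libraries, H3 shutoff replicate 1 at 0 h being the exception, and no promoter was called changed. Relative occupancy in the 300 bp before the start codon had a median over the 10 genes that went from 0.587 to 0.624 in H3 shutoff replicate 1, from 0.249 to 0.330 in replicate 2, whereas wildtype had 0.294 and then 0.270. H3 shutoff replicate 1 was high at both times, and in 0 of 10 genes did both libraries at 3 h lie above, or both below, those at 0 h. The promoter of RPL5 was the lowest in 5 of 6 libraries, going from 42 to 48 read centres in replicate 1, from 11 to 20 in replicate 2, whereas wildtype had 31 and then 12. That of RPS2 was the highest in 5 of 6, with 96 and then 117, 62 and then 90, and in wildtype 81 and then 73. The replicates differed most at RPS20, with 93 read centres in replicate 1 and 23 in replicate 2 at 0 h.

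By edgeR on 39964 windows and tiles of 300 bp, 0 of 10 promoters were called higher or lower, where 1.22% of all rows were called higher and 2.05% lower, and 0 of 10 had an unadjusted p under 0.05. DESeq2 called 0 of 10 as well. The difference from wildtype was called in 0 of 10, where 0.0576% of all rows were called higher. The median log2 change was 0.32 in H3 shutoff and -0.11 in wildtype. It moved to 0.051 when identical intervals were counted once, with 0 promoters called. It also depended on single libraries: without the 0 h library of replicate 1 and without the block, the median was 1.01 and 4 of 10 promoters were called higher, whereas it was -0.27 without the 0 h library of replicate 2 and -0.28 without the 3 h library of replicate 1, with 0 called in either case. As means within pairs, the promoter change was 0.38 ± 0.22 and the coding change 0.94 ± 0.56 (SD, n = 2 pairs).

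The width of the promoter gap, the longest distance between neighbouring called centres that reaches into the 400 bp before the start codon, changed in no single direction. Its median over the 10 genes went from 230.5 to 290.5 bp in H3 shutoff replicate 1, from 297.5 to 273.0 bp in replicate 2, whereas wildtype had 233.0 and then 299.5 bp. Between all neighbouring calls of the genome, the median distance was 191 to 202 bp by library, and the 95th percentile 304 to 340 bp. The gap is the longest of several distances, so it tends to exceed a typical one by construction. It was not measured at other places of the genome. The median change per gene was 20.0 and -24.5 bp in H3 shutoff, a mean of -2.25 ± 31.5 bp (SD, n = 2 pairs), and 9.5 bp in wildtype. The longest distance was often a different interval at each time, so these changes do not follow the same gap. In RPP0 of H3 shutoff replicate 1, it ran from -591 to -367 bp at 0 h and from -201 to 115 bp at 3 h. RPL5 had the widest gap, 468 bp in H3 shutoff replicate 2 at 0 h and 454 bp in wildtype at 3 h. In the other 4 libraries its gap was 229 to 247 bp. RPL3 had the narrowest, 188 to 204 bp in 5 libraries and 341 bp in wildtype at 3 h.

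**Figure D5:**
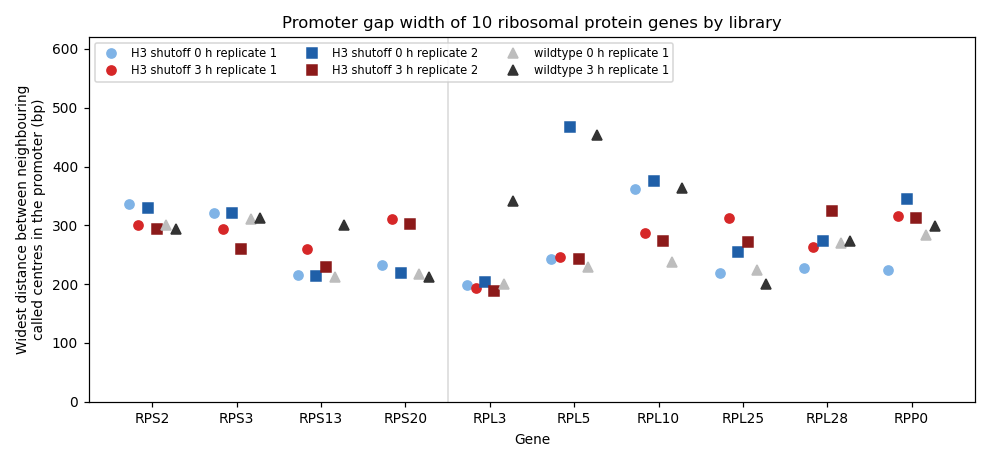
Width in bp of the promoter gap of each gene (longest distance between neighbouring called nucleosome centres within reach of the 400 bp before the start codon), with 1 point per library and small-subunit genes left of the vertical line. Widths run from 188 to 468 bp, and the H3 shutoff points at 3 h (red and dark red) lie on either side of those at 0 h. The pair of centres that bounds the gap can differ between the libraries of a gene.

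The emptiest part of the promoter filled a little in replicate 2. The lowest count within 50 bp of any position in the 400 bp before the start codon was 0 read centres in 5 of 10 genes in H3 shutoff replicate 2 at 0 h, and in 0 of 10 at 3 h. It was higher at 3 h in 10 of 10 genes of that replicate. In replicate 1 no gene had a window without reads at either time, and 4 of 10 genes were higher at 3 h, so the replicates did not share this change. In wildtype 4 genes had an empty window at 0 h and 3 at 3 h.

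Upstream of the promoters the flanks moved in both directions. In the flank of 500 bp that begins 1000 bp before the start codon, both H3 shutoff libraries at 3 h lay below both at 0 h in 5 genes and above them in 3. The share of other tiles with such an order was not counted here either. There the median log2 change was -0.16 and -0.14 in H3 shutoff and 0.08 in wildtype, with 4 of 10 genes above 0 in either replicate. Of 29 consensus nucleosomes more than 400 bp upstream, 4 were called lower by edgeR with the block and 0 higher, against 2.96% of all nucleosomes called lower. They lie upstream of RPP0 (-928 and -758 bp) and RPL28 (-950 and -780 bp). The neighbours VRP1 and VPS73 lie on the minus strand, 780 and 793 bp upstream by the RefSeq annotation. The nucleosomes at -928 and -950 bp are thus inside the neighbouring genes, and those at -758 and -780 bp are beside their starts. The nucleosome at -758 bp of RPP0 went from 171 to 40 read centres in replicate 1, and 140 to 47 in replicate 2, with 161 and 165 in wildtype (log2 change -1.65, adjusted p = 0.000167). That at -950 bp of RPL28 went from 221 to 67 and from 192 to 76, with 220 and 243 in wildtype (log2 change -1.34, adjusted p = 0.00390). Without the replicate block, by DESeq2 or with identical intervals counted once, 0 of the 4 were called. The flank of RPS20 went from 2.20 to 1.47 and from 1.69 to 1.45 in relative occupancy, and none of its 4 nucleosomes passed the test. At RPP0, 2 coding nucleosomes were called higher, while the nucleosomes called lower upstream of it lie in or beside VRP1. Downstream, 2 of 39 consensus nucleosomes were called higher and none lower, 1 each beside RPS2 and RPP0, where 2.73% of all nucleosomes were called higher.

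The 10 genes differed among themselves in how far their nucleosome pattern was shared. In wildtype at 0 h, the density of RPL5 around the start codon had the highest correlation with the mean of the other 9 genes, r = 0.61, followed by RPS20 at r = 0.53, and RPL10 and RPP0 the lowest, at r = -0.04 and 0.03. These values are over 120 bins of 10 bp of 1 library, neighbouring bins share nucleosomes, and they are given as a description.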

How the data were processed

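Single-end MNase-seq intervals and called nucleosomes of 6 libraries were used. The authors aligned reads to sacCer1 with Bowtie 0.12.6, extended them to the mean fragment length of the library, removed ribosomal DNA reads and drew an equal number of reads at random from each library. The deposited intervals hold 5000001 reads each, without strand, and the deposited lists of called nucleosomes give counts of read centres within 50 bp, not normalized, as the authors made them. Recounted from the intervals, at least 99.99% of these counts were identical. Titles gave the groups and the replicate numbers.

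Read centres were counted in each coding span, in the 300 bp before the start codon, and in tiles of the same kind over the rest of the genome (1000 bp for coding spans, 300 bp for promoters). Consensus nucleosomes were called on the pooled libraries with a protected length of 169 bp. Tables were tested with edgeR 4.0.16 (R 4.3.3, TMM, glmQLFit and glmQLFTest, mean of at least 10 read centres), with the replicate pair as a block since both times of a replicate come from 1 culture, which left 1 residual degree of freedom. DESeq2 1.42.0 was an alternative. As a check of the pairing, deviations of same-numbered H3 shutoff libraries had r = -0.112 over tiles and r = -0.115 over nucleosomes, so that a crossed pairing was added. The edgeR p-values rest on the spread between the H3 shutoff libraries, drawn largely from all rows together and not from the single gene. The wildtype pair adds no spread, so the test of the difference from wildtype holds no wildtype replicate error. The tests were checked on simulated data. The other steps used Python 3.11.15. Intervals from counts cover counting error only, since reads carry no molecular identifiers.

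The genes were given by name, all 10 passed the filter on low counts, and nucleosomes were named where called by edgeR. The genes, windows and lists were chosen with earlier results of these data known. No sequence of the sacCer1 build was used here. Alternatives were library totals, no filter on low counts, each identical interval counted once, other tile, window and gap definitions, no block, and leaving out replicates or libraries.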

Additional observations from a re-analysis of the deposited data

Results flagged for a closer look

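The change from 0 h to 3 h in the coding span differed between the strains, by edgeR's test of H3 shutoff change minus wildtype change, for RPS2 (1.64 on the log2 scale), RPS3 (1.57), RPL3 (1.53), RPL5 (1.46), RPL25 (1.28) and RPP0 (1.74). The same test called the RPS13 nucleosome 647 bp after the start codon, at 3.58. In both cases the wildtype side is 1 pair of libraries, and none of the 7 was called without the replicate block or by DESeq2.

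For 4 measures, the median over the 10 genes of the change per gene had one sign in both H3 shutoff pairs and the other in the wildtype pair, and these differences were not tested. The difference of H3 shutoff minus wildtype was -0.233 for array amplitude, 0.53 on the log2 scale for the 300 bp promoter, -0.23 for the upstream flank and 0.45 for the downstream flank. The sign depends on the measure in some cases. For array amplitude, the wildtype level median fell from 0.963 to 0.876, and the wildtype change was -0.011 with the counting variance subtracted. For the upstream flank, the median level was higher at 3 h both in H3 shutoff replicate 2 (0.881, then 0.992) and in wildtype (0.852, then 0.881).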

How the results depend on the processing

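The median coding change stayed above 0 in all 14 alternatives, between 0.52 and 1.32. DESeq2 without independent filtering called 0 coding genes, 0 coding nucleosomes and 0 genes in the difference from wildtype, and DESeq2 with independent filtering called 0 in that difference. The fit with no replicate block called 0 genes in the difference, 0 of 12 coding nucleosomes and 7 of 10 coding genes. Counting identical intervals once left 3 genes in the difference and 1 coding nucleosome, and moved the promoter median to 0.051 and the coding nucleosome median to 0.57. Leaving out 1 H3 shutoff library without the block gave 0 to 9 coding genes, 0 to 7 in the difference, promoter medians from -0.28 (without 3 h replicate 1; -0.27 without 0 h replicate 2) to 1.01 (without 0 h replicate 1), 0 to 4 promoters called higher and 0 to 1 different from wildtype. Coding nucleosomes retained in H3 shutoff ranged from 0 to 7 between the replicates taken alone. The gap width change ranged from -31.0 to 20.0 bp over its alternatives. By the distance between calls it had no fixed direction between the replicates. By runs of low coverage, under 0.5 or 0.3 of the genome mean, the median change per gene was below 0 in both H3 shutoff replicates. The crossed replicate block called 9 coding genes, 6 in the difference and 14 coding nucleosomes. Of the single genes, RPS20 passed the threshold in 4 alternatives, among them no filter on low counts, and RPS13 in 1.

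With 2 against 2 libraries, an exact permutation test over samples cannot give a p below 0.333, so none is given. Depth limits single nucleosomes most: coding spans hold 60 to 563 read centres per library, and single coding nucleosomes as few as 5.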
